A study of Danio rerio with 6 samples.

Results

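The actinodin genes and1, and2 and and3 encode non-collagenous structural proteins of actinotrichia, the stiff fibrils that hold a fish fin fold flat. They were taken as the 3 rows, of 32266 genes in the deposited table, whose name was and1, and2 or and3, and all 3 passed the filter on low counts. Transcript levels had been measured by RNA sequencing in fin folds of zebrafish larvae aged 3 days. The uncut group held 3 libraries from folds that had not been cut, and the amputated group held 3 libraries from folds 4 h after amputation. The sample descriptions of both groups also carry the name of the solvent DMSO, and neither a strain nor a genotype is given. The labels do not say how many larvae were pooled, where the cut was made, or whether replicates came from different larvae. A p-value here therefore covers the spread among these libraries alone, which may be technical.

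Actinotrichia are hyperfibrils of collagen and actinodin laid down beneath the epidermis by cells at the fold margin and by fin mesenchyme, and mesenchymal cells migrate along them. In zebrafish, knockdown of and1 together with and2 removes actinotrichia, and the actinodin family has no counterpart in tetrapods. After fin amputation in fish, new actinotrichia form at the tip of the regrowing fin. The family gene and4 has no row under that name in the table and was not analysed here.

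Total counts ran from 11216130 to 23019556 per library. In a principal component analysis of log2 levels the groups separated along component 1 (66.8% of variance), and uncut replicate 1 stood apart along component 2 (13.7%). Without that library and1, and2 and and3 changed by −1.25, −1.17 and −1.93 on the log2 scale. Markers of fold epidermis were abundant in every library, with 11 superficial epidermis genes summing to 31950 to 56630 CPM, most of it from krt4. Levels are given as CPM, a count relative to the library total after TMM scaling, which takes most genes as not changing. Markers of muscle summed to 1712 to 2674 CPM and neural markers to 16.3 to 22.5 CPM.

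All 3 actinodin genes were lower 4 h after amputation. The level of and1 and of and2 fell by a little more than a factor of 2, and that of and3 by a factor of about 4. The groups did not overlap for any of the 3, in a comparison where 51.1% of tested genes did not overlap and 24.1% were lower without overlap. In edgeR's quasi-likelihood test all 3 were called lower at an adjusted p under 0.05, where 40.4% of 17883 tested genes were called, 20.8% higher and 19.6% lower. That split was 3724 higher and 3499 lower, and 6820 higher and 1638 lower with libraries scaled by their totals alone. Abundant genes were called lower more often: of 84 tested genes whose mean reached 1000 CPM, 33 (39.3%) were lower and 5 higher. In bulk tissue, fewer cells of a type and less RNA per cell cannot be told apart.

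The gene and1 (ENSDARG00000088514, chromosome 24, 26134462 to 26138318) and the gene and2 (ENSDARG00000079302, chromosome 2, 31779986 to 31784434) are the abundant members. Positions are as deposited, and no source used here names their build. For and1 the TMM-scaled level in the uncut libraries was 27409 CPM (replicate 1), 27507 (2) and 28225 (3). After amputation it was 11366 CPM, 10849 and 12841. The uncut libraries lay within a narrow band, and among the amputated ones replicate 3 was the highest. The log2 fold change was −1.25 ± 0.12 (SE), a 2.37-fold fall, with an edgeR adjusted p of 7.4e-06. For and2 the level was 34525, 34893 and 36289 CPM in the uncut replicates in the same order and 15308, 14645 and 17422 CPM in the amputated ones. Again amputated replicate 3 was the highest of its group and replicate 2 the lowest, well under every uncut library. The log2 fold change of and2 was −1.16 ± 0.12 (SE), a 2.23-fold fall (edgeR adjusted p = 1.6e-05).

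The gene and3 (ENSDARG00000056873, chromosome 10, 22879104 to 22885306) had fewer counts and the larger relative fall. Its level was 4239, 3677 and 3775 CPM in the uncut libraries, by replicate number, and 979.7, 882.4 and 1049 CPM in the amputated ones. Uncut replicate 1 was the highest, unlike for and1 and and2, where it was the lowest uncut library. The log2 fold change of and3 was −2.01 ± 0.10 (SE), a 4.02-fold fall, with an edgeR adjusted p of 1.7e-07, and it was −1.93 without uncut replicate 1. In the authors' deposited table, with its sign turned round to amputated over uncut, the log2 fold changes were −1.24 ± 0.08 (SE) for and1, −1.15 ± 0.08 for and2 and −1.98 ± 0.10 for and3.

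**Figure D1:**
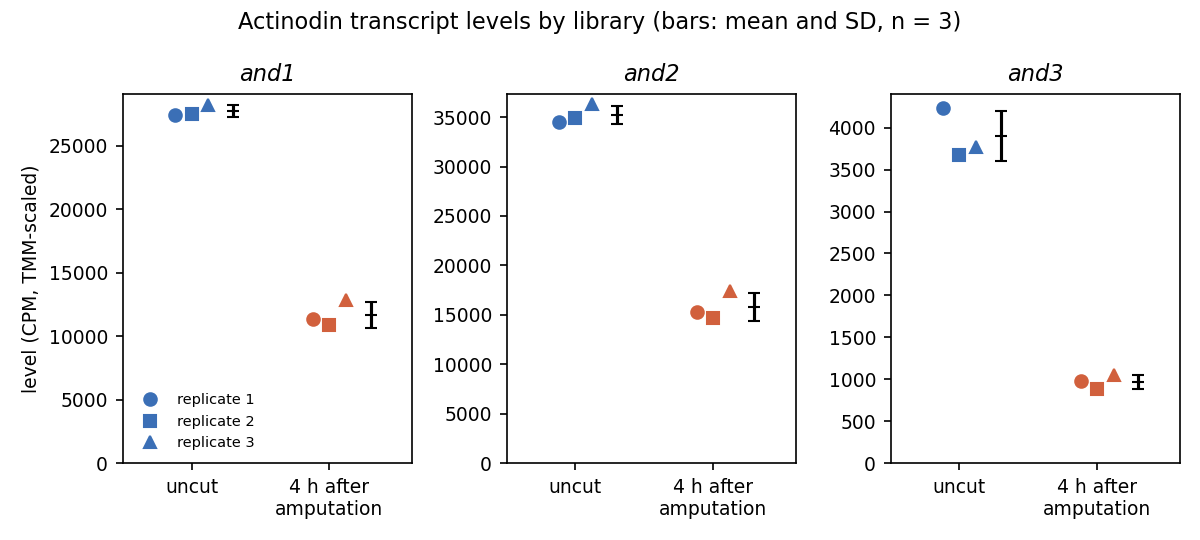
TMM-scaled level (CPM, axes from 0) of and1, and2 and and3 in each library, uncut in blue and 4 h after amputation in orange, with symbols for replicates 1 to 3 and bars for the mean and SD (n = 3). In each panel the 3 amputated libraries lie below the 3 uncut ones, for and3 at 882.4 to 1049 CPM against 3677 to 4239 CPM.

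Within the groups, and1 and and2 varied together. In uncut folds the coefficient of variation was 1.61% for and1, 2.64% for and2 and 7.7% for and3. For the 84 tested genes whose mean reached 1000 CPM, the median coefficient of variation in uncut folds was 10.2%. In amputated folds the values were 8.85%, 9.19% and 8.65% for and1, and2 and and3, and the median of the 84 genes was 6.63%. Amputated replicate 3 lay above the mean log2 level of its group by 0.14, 0.15 and 0.12 for and1, and2 and and3. Amputated replicate 2 lay below it, with deviations of −0.10, −0.10 and −0.13. The members therefore shared the order of the amputated libraries, but that order was not particular to them. By replicate number col1a1a was at 41896, 39806 and 44528 CPM in amputated folds and sparc at 2537, 2409 and 2755 CPM. The keratin gene krt4 differed, at 35306, 28221 and 32103 CPM. How many tested genes share the order was not computed. In uncut replicate 1 and3 alone of the members lay above its group mean, by 0.12 against −0.02 for and1 and −0.03 for and2.

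The 3 genes took a large share of the counts assigned to genes. Their summed share of all counts, by replicate number, was 5.90%, 6.17% and 6.26% in the uncut libraries and 2.97%, 2.95% and 3.40% in the amputated ones. The mean was 6.11% ± 0.187 (SD, n = 3) in uncut and 3.10% ± 0.254 (SD, n = 3) in amputated folds, a difference of −3.01 percentage points. The groups did not overlap, and the exact two-sided permutation test gave p = 0.1, the smallest that 3 libraries against 3 allow. Counting error was small beside this: the rarest value, 0.0987% for and3 in amputated replicate 2, had an exact 95% binomial interval of 0.0973% to 0.1001%, which covers counting error only. In every library and2 ranked 3 and and1 ranked 5 among all genes by count, before and after amputation. The gene and3 ranked 18, 19 and 18 in the uncut libraries and 83, 85 and 67 in the amputated ones. Counts were not divided by transcript length, so these ranks order counts, not molecules.

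The loss of actinodin reads was among the biggest in the table. On the TMM-scaled CPM scale, and2 lost 19440 CPM between the group means, the second most of all tested genes, and1 lost 16030 CPM (rank 4) and and3 lost 2927 CPM (rank 8). Together they held 15.2% of the CPM lost over all genes whose mean was lower after amputation. The most was lost by col1a1a, which went from 86700 to 42077 CPM. Such ranks also follow abundance: krt4 ranked 5 with a log2 fold change of only −0.49. By log2 fold change, 41 tested genes had a lower value than and3, 297 than and1 and 378 than and2. A called fall of 1 or more on the log2 scale was found for 3.17% of tested genes.

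**Figure D2:**
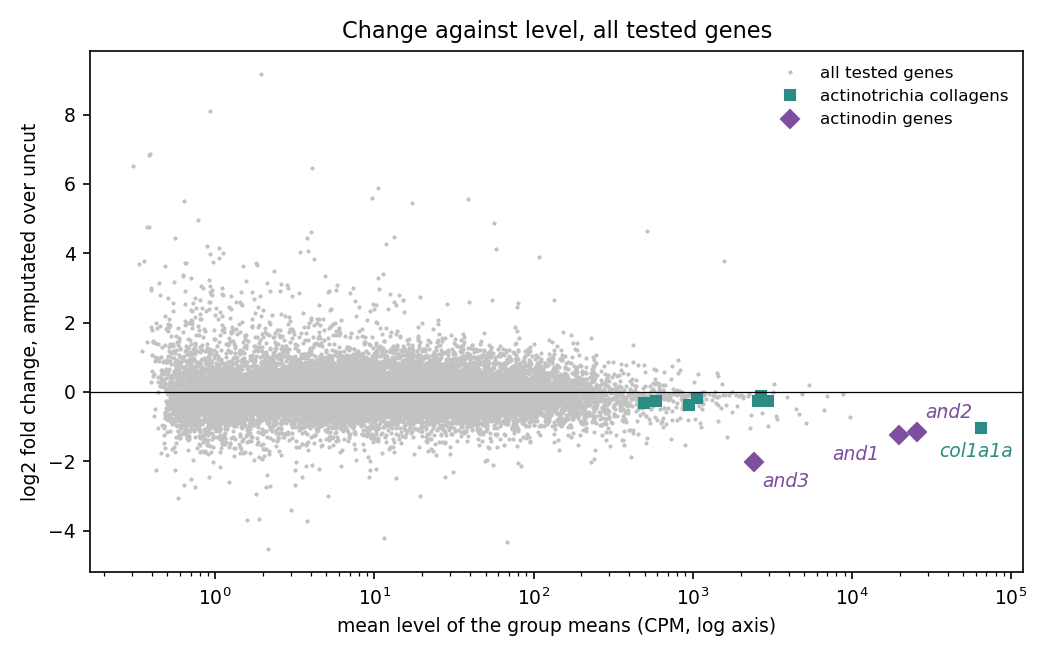
Log2 fold change, amputated over uncut, against the mean of the 2 group levels (CPM, log axis) for 17883 tested genes in grey, with 8 tested actinotrichia collagen genes as squares and and1, and2 and and3 as diamonds. The 3 actinodin genes and col1a1a lie below the bulk of abundant genes, at −2.01 for and3 and −1.04 for col1a1a.

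The members did not fall by the same amount. Ratios of raw counts within a library need no scaling between libraries. The ratio of and3 to and1 was 0.155, 0.134 and 0.134 in the uncut libraries, by replicate number, and 0.0862, 0.0813 and 0.0817 in the amputated ones. All amputated values lay below all uncut ones. On the log2 scale the mean went from −2.83 ± 0.12 (SD, n = 3) to −3.59 ± 0.047 (SD, n = 3), a difference of −0.76. Without uncut replicate 1 this difference was −0.69. The ratio of and3 to and2 moved likewise, from 0.104 to 0.123 in uncut to 0.0602 to 0.0640 in amputated libraries, a log2 difference of −0.84.

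The ratio of and2 to and1 hardly moved. It was 1.26, 1.27 and 1.29 in the uncut libraries, by replicate number, and 1.35, 1.35 and 1.36 in the amputated ones, so the groups did not overlap, but the log2 difference was only 0.088. Each of these 3 comparisons of ratios gave an exact two-sided permutation p of 0.1, the smallest possible, and 0.1 after adjustment over the 3. As a share of all actinodin counts, and3 took 5.53% to 6.41% in uncut and 3.35% to 3.54% in amputated libraries, and1 took 41.3% to 41.6% and 41.0% to 41.1%, and and2 took 52.2% to 53.1% and 55.4% to 55.6%.

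**Figure D3:**
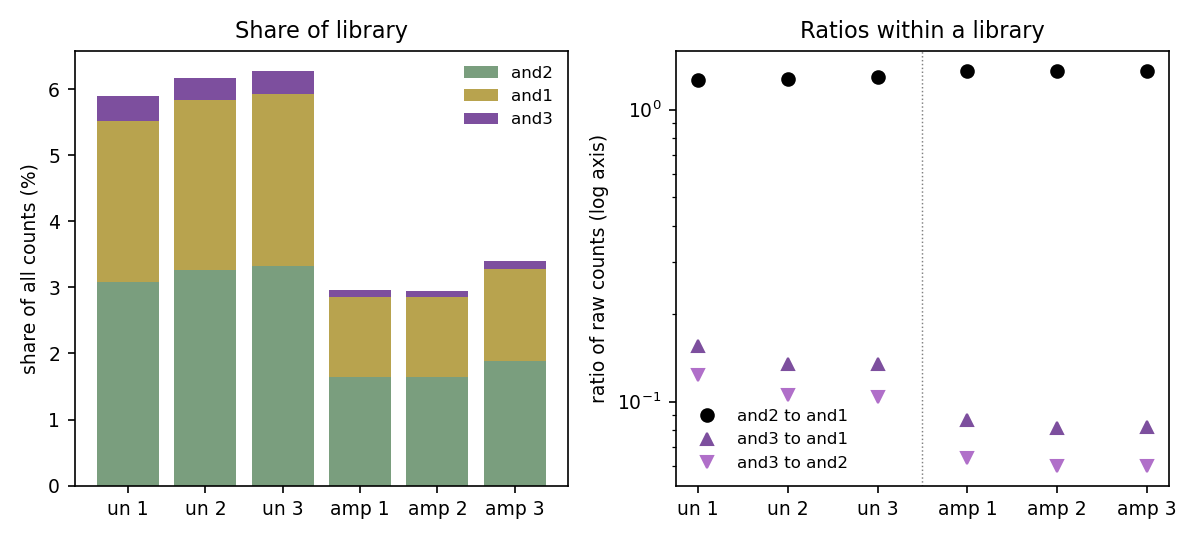
Left, share of all counts (%, bars from 0) taken by and2, and1 and and3 in uncut (un) and amputated (amp) replicates 1 to 3. Right, ratios of raw counts between members in the same libraries (log axis), where and3 to and1 goes from 0.134 to 0.155 in uncut down to 0.0813 to 0.0862 in amputated libraries, and and2 to and1 stays between 1.26 and 1.36.

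The collagen genes of actinotrichia had smaller log2 fold changes than the actinodins, and col1a1a came nearest to them. Type I, type II and type IX collagen chains have been found in actinotrichia or the cells that make them. Of 10 such genes listed, 8 were tested, 6 of them fell and none rose. Among all tested genes 19.6% were called lower, and among the 84 genes of at least 1000 CPM 39.3% were. The median log2 fold change of the 8 was −0.27, beside 0.0034 for all tested genes and −0.17 for those 84 genes. With libraries scaled by their totals alone 1 of the 8 was lower, col1a1a, and the median was −0.01, beside 0.26 for all tested genes in that fit. The type I chain gene col1a1a fell by 1.04 on the log2 scale (SE 0.13), from 86700 ± 5039 to 42077 ± 2366 CPM (SD, n = 3). Its paralog col1a1b and its partner chain gene col1a2 changed by −0.26 ± 0.09 (SE) and −0.27 ± 0.09. The type II genes col2a1b and col2a1a were at −0.37 ± 0.08 and −0.13 ± 0.10, and of these col2a1a did not pass the test (edgeR adjusted p = 0.346). The type IX genes col9a2 and col9a3 were at −0.25 ± 0.09 and −0.32 ± 0.09, while col9a1b, at −0.19 ± 0.10, did not pass (edgeR adjusted p = 0.128). With the replicate number as a block col9a1b was called (edgeR adjusted p = 0.0451), which made 7 lower of 8. Besides col1a1a, col2a1b was the only one of the 8 called in every fit with 1 library left out. Under scaling by totals col2a1a and col9a1b were above 0, at 0.13 and 0.06. These chains also serve cartilage, skin and other connective tissue.

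Within libraries, all 3 actinodins were lower against the collagens after amputation, least of all and1 and and2 against col1a1a. The log2 ratio of and1 to col1a1a changed by −0.21 and that of and2 to col1a1a by −0.12, with no overlap between groups. The ratio of and3 to col1a1a changed by −0.96. Against the summed counts of the other 7 collagen genes the changes were −1.01 for and1, −0.92 for and2 and −1.77 for and3. These ratios belong to a family of 48, formed from each member or their sum over 12 genes or lists. All 48 were lower after amputation and the groups did not overlap in 47, each with an exact permutation p of 0.1 (0.102 adjusted over the 48). The groups overlapped for and2 against erythroid markers. A ratio is bound to be lower where the member fell by more than the summed list. The 48 also reuse the same 3 members, so they restate the fold changes and are not independent support. How many other tested genes have such ratios was not computed.

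Genes that process and crosslink collagen mostly fell. Of 17 tested, 15 fell and none rose, beside 19.6% lower among all tested genes. Their median was −0.66. When scaled by totals alone it was −0.41, with 11 lower and 1 higher, beside a median of 0.26 for all tested genes in that fit. The lysyl hydroxylase gene plod1a was at −1.09 ± 0.10, and pcolcea, which encodes an enhancer of procollagen trimming, at −1.10 ± 0.13. The procollagen protease gene bmp1a was at −0.91 ± 0.09 and the crosslinking oxidase gene loxl2b at −0.79 ± 0.07. These 4 had the smallest adjusted p of the list. All 4 had an adjusted p under 0.05 in all 12 alternative fits, the DESeq2 test included. Against the summed counts of these 17 genes, the log2 ratio of all 3 actinodins together changed by −0.51. Most of that sum was sparc, at 4118 CPM in uncut and 2567 CPM in amputated folds.

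Genes of fold mesenchyme and of fold epidermis fell more often than they rose. Of 21 tested fold mesenchyme genes, 12 fell and none rose, with a median of −0.35. With library totals alone 7 fell and 5 rose, and the median was −0.09. In that fit the median of all 17883 tested genes was 0.26, with 6820 higher and 1638 lower. The homeobox genes msx3, msx1a and msx1b were at −1.14 ± 0.08, −1.31 ± 0.16 and −0.68 ± 0.08, and the mesenchymal transcription factor gene twist3 at −0.80 ± 0.08. Of 21 genes of fold epidermis and of its adhesion to the mesenchyme, 13 fell and 2 rose, with a median of −0.43 (−0.18 when scaled by totals alone). The Fraser complex genes fras1 and frem1a, whose products anchor the fold's epidermis, were at −1.34 ± 0.13 and −1.39 ± 0.09. The laminin alpha chain gene lama5 fell from 862.4 to 430.3 CPM. The transcription factor gene sp8b rose, at 0.73 ± 0.08, as did wnt5a, at 0.77 ± 0.09. In both lists the share of lower genes was above the 19.6% of all tested genes. The log2 ratio of all 3 actinodins together changed by −0.86 against the summed mesenchyme genes and by −0.65 against the fold epidermis and adhesion genes. The largest parts of the mesenchyme sum, 3190 to 3386 CPM in uncut folds, were the genes tnc and hmcn2. Their levels were 888.1 and 807.5 CPM in uncut and 716.2 and 586.2 CPM in amputated folds.

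**Figure D4:**
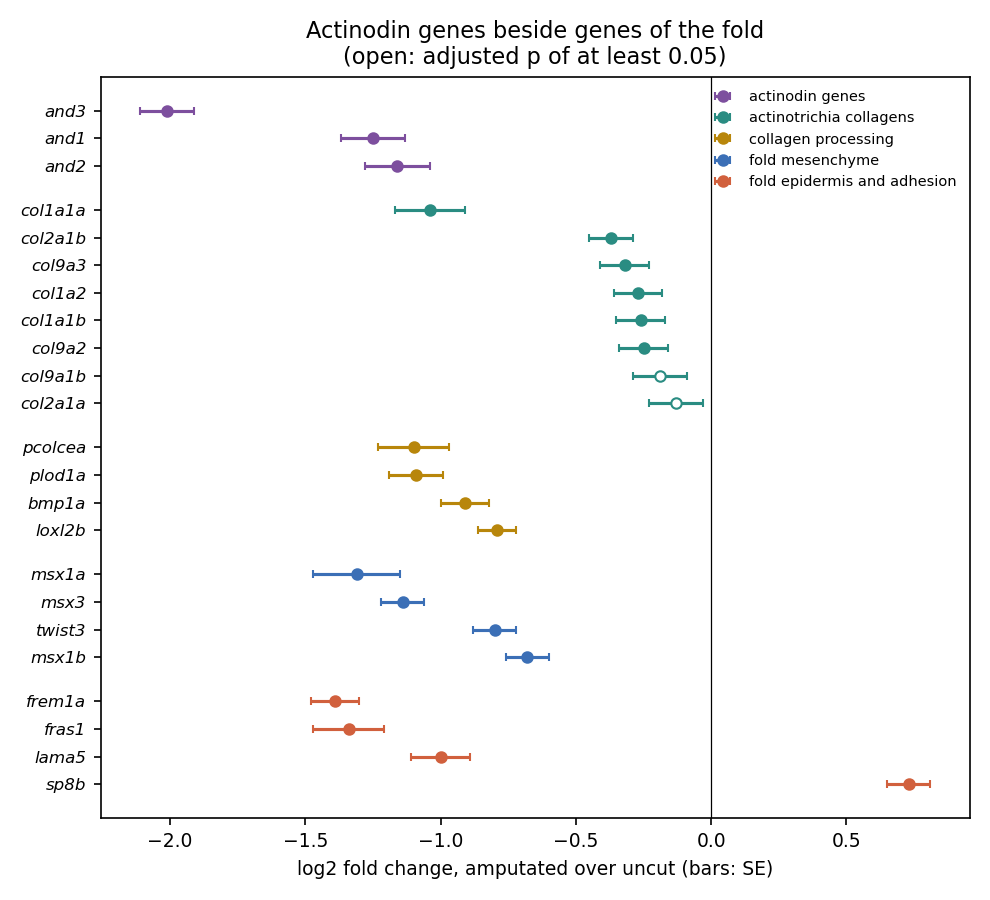
Log2 fold change, amputated over uncut, with its SE, for the 3 actinodin genes, the 8 tested actinotrichia collagens and 4 genes from each of 3 other lists. Those 4 are the genes of smallest adjusted p in their list, and open circles did not pass the test. The gene and3 lies farthest to the left at −2.01, col1a1a at −1.04 lies close to and2, and the other collagens lie between −0.37 and −0.13.

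Markers of other cell types moved as well, in a table where 20.8% of tested genes were higher and 19.6% lower. All 7 leukocyte markers rose, and their sum went from 15.5 to 23.3 CPM in uncut to 84.7 to 121.9 CPM in amputated libraries. Of 11 superficial epidermis markers 8 fell and none rose, with sums of 43650 to 56630 CPM against 31950 to 39370 CPM, and when scaled by totals alone 4 fell and 1 rose. For basal epidermis, 4 of 10 markers fell while 1 rose, and the median was −0.12. When scaled by totals alone 2 fell and 5 rose, with a median of 0.14. In that fit the median of all 17883 tested genes was 0.26, with 6820 higher and 1638 lower. With the replicate block 5 basal epidermis markers fell and 3 rose. Of 11 muscle markers 6 fell and none rose, with sums of 2151 to 2674 CPM against 1712 to 1898 CPM, but none was called when scaled by totals alone, where the median was −0.07 against −0.33. Of 7 notochord and cartilage markers 1 fell, and so did 1 of 7 neural markers, while none of 4 erythroid markers passed the test. The first was matn1, near the floor at 0.712 CPM in uncut and 0.207 CPM in amputated folds. The neural one was gap43, at 8.01 and 5.29 CPM. Scaled by totals alone, 1 notochord and cartilage marker fell and 1 rose, and no neural marker was called. The markers mylpfb, noto, neurod1 and hbae1.1 had too few counts to be tested. Within libraries, the log2 ratio of all 3 actinodins together changed by −0.75 against superficial epidermis, by −0.93 against basal epidermis, by −0.87 against muscle and by −1.11 against notochord and cartilage markers. Most of the superficial sum was krt4, at 44695 CPM in uncut and 31877 CPM in amputated folds. Most of the basal sum was krt5, at 7917 and 5489 CPM, so these 2 ratios largely follow single genes.

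Genes whose pattern over the 6 libraries was most like each member were sought among 3136 named genes averaging 50 CPM or more, by the Euclidean distance between centred log2 levels. The members and1 and and2 lay 0.11 apart, and and3 lay 0.95 from and1 and 1.05 from and2. Nearest to and1 were vap (distance 0.10), slitrk6 (0.13), which encodes a transmembrane protein with leucine-rich repeats, and emilin2b (0.16), which encodes an elastic-fibre glycoprotein. Their log2 fold changes were −1.24, −1.25 and −1.26. Nearest to and2 were CSGALNACT1 (1 of many), named after an enzyme of chondroitin sulfate synthesis, at 0.14, vap at 0.15, and fah, an enzyme gene of tyrosine breakdown, at 0.15.

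Nearest to and3 were a pair of basement membrane genes. The laminin beta chain gene lamb2l lay at a distance of 0.30 and the nidogen gene nid1b at 0.40, followed by kazald2 at 0.42. The level of lamb2l was 342.2, 353.1 and 406.3 CPM in the uncut libraries, by replicate number, and 92.2, 79.4 and 99.7 CPM in the amputated ones. It fell by 2.02 on the log2 scale, nid1b was at −1.87 and kazald2 at −1.97. The distances from and3 were larger than those from and1 and and2, and in uncut replicate 1, where and3 was highest, lamb2l and nid1b were lowest of the uncut libraries and kazald2, at 106.7 CPM, was highest. Since the groups differ for all these genes, likeness over 6 libraries mostly reflects the difference between groups.

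**Figure D5:**
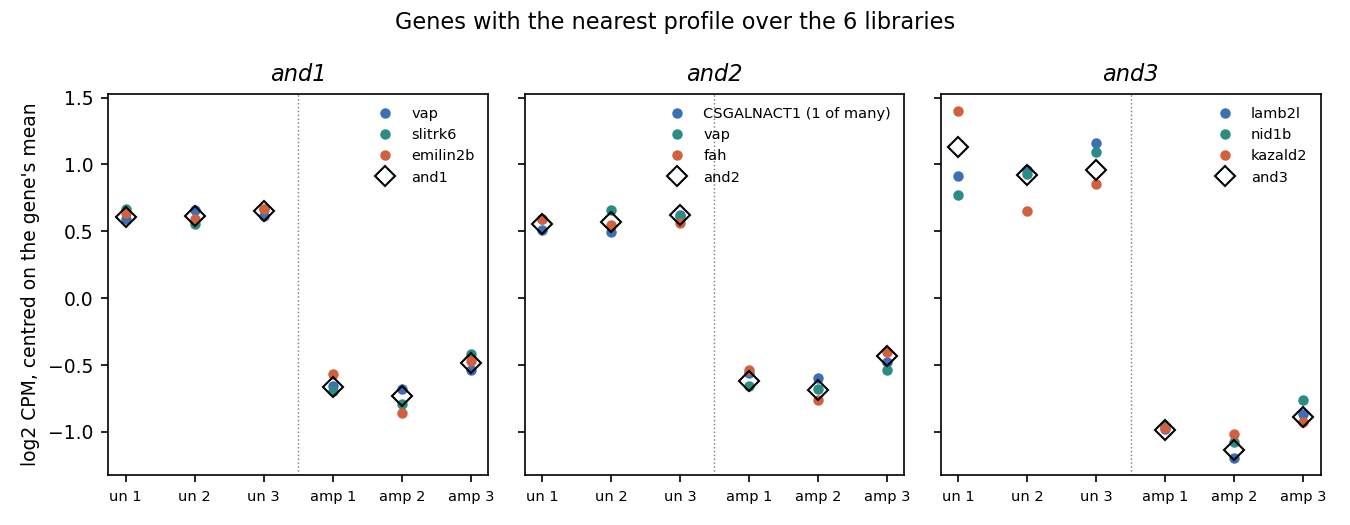
Log2 CPM centred on each gene's mean, in uncut (un) and amputated (amp) replicates 1 to 3, for and1, and2 and and3 (open diamonds) and the 3 genes nearest to each (dots). The dots lie close to the diamonds of and1 and and2, at distances of 0.10 to 0.16, and spread more around and3, most of all in uncut replicate 1.

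The members lie on 3 chromosomes, and their neighbours, which were examined after the members' values were seen, differed in how they moved. No other gene of the table overlaps any of the 3. All 4 neighbours of and1, the nearest 2 on each side, were called lower, beside 19.6% of all tested genes. The adiponectin gene adipoqa, which ends 650 bases from and1, was at −1.04 ± 0.24 with 3.47 CPM in uncut folds, and the opsin gene tmtopsb at −1.17 ± 0.12. On the other side myeov2 was at −0.70 ± 0.11 and apodb at −0.72 ± 0.07. Near and2, ralyl fell by 1.45 on the log2 scale (SE 0.18), while lrrcc1, at 0.06 ± 0.15, was not called. The neighbour fam134b was at −0.72 ± 0.25, and its call did not hold in several other fits. The edgeR adjusted p was 0.134 when amputated replicate 1 was left out, 0.0619 for amputated replicate 2, 0.205 for uncut replicate 2, 0.0715 for uncut replicate 3, and 0.169 under scaling by totals. The antisense gene si:dkeyp-13d12.2 was at −1.65 ± 0.67 and did not pass (edgeR adjusted p = 0.0699), so 2 of 4 neighbours of and2 were lower in the main fit. Its level was near the floor, at 0.812 CPM in uncut and 0.255 CPM in amputated folds. These rest on 38 and 16 counts summed over the libraries of each group. The gene lies within the span of fam134b, and the library kit does not mark strand, so reads of the pair may not be separable. This antisense gene was called with the replicate block (edgeR adjusted p = 0.0244) and with no filter (0.0321). It was also called without amputated replicate 2 (0.0264) and without uncut replicate 1 (0.00919). Of the 3 tested neighbours of and3 none passed, and ap4m1, which starts 44 bases beyond and3, was at 0.18 ± 0.16. No source used here says how reads between adjacent genes were assigned.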

How the data were processed

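The labels' protocols name total RNA from fin folds and a TruSeq kit that does not mark strand. The submitters' processing notes name TopHat, Cufflinks and DESeq2 without version or role, and no source used here names the read counter, genome build or annotation. Whole-number counts per gene were deposited for 6 libraries, with the authors' normalized signal, which equals the count over 1 size factor per library (largest relative deviation 5.5e-10). Per the file headers it also held the authors' log2 fold change (uncut over amputated), its Wald score, p-value and adjusted p-value. Reads of paralogs may be split in an unknown way.

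The groups were compared without covariates by the quasi-likelihood functions glmQLFit and glmQLFTest of edgeR 4.0.16 (R 4.3.3). TMM set the library scale, after filterByExpr had removed low genes (count minimum 10, total minimum 15). Adjusted p is by Benjamini-Hochberg over 17883 genes, and a call is an adjusted p under 0.05. The standard error was derived from the F statistic as the absolute log2 fold change divided by its root. Levels are TMM-scaled CPM, in which a count of 1 was worth 0.0436 to 0.0972 CPM. The procedure was tested on simulated data in which few genes changed, in random directions. That simulation cannot check the scaling where many genes change, as they did here.

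The members and the 11 gene lists were chosen with earlier results of these data known. Of 136 list members 132 were found, 3 of them by gene ID. Genes were named by a rule: all tested actinotrichia collagens, up to 4 members of each other pathway list by smallest adjusted p, and the 3 nearest profiles per member among genes of at least 50 CPM. Chromosomal neighbours, ratios to lists, and the set of genes at 1000 CPM or more were added after values were seen.

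Same-numbered libraries deviated together from their group means (correlations across genes 0.222, 0.199 and 0.153, others −0.143 to −0.040), which meets the criterion set for pairing (each above 0.1). Deviations within a group cancel for each gene, so positive same-number values force negative ones among the others, which add no separate evidence. The labels give numbers only, so the pairing rests on the same-number correlations. The main fit and the permutation tests were unpaired, and values with the replicate number as a block are given for some of the calls that changed. With the block 4125 genes were higher and 4016 lower. Lower genes went from 8 to 9 for superficial epidermis markers, from 6 to 8 for muscle markers and from 12 to 13 for fold mesenchyme. Higher fold epidermis and adhesion genes went from 2 to 3. Replicates differed by more than sampling noise (chi-square per degree of freedom 4.6 to 16.6). Alternatives were DESeq2 1.42.0, its size factors, library totals with and without the members, no filter, the replicate number as a block, and each library left out in turn.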

Additional observations from a re-analysis of the deposited data

How the results depend on the processing

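All 3 actinodin genes stayed lower and called in all 12 alternative fits, with log2 fold changes of −1.32 to −0.99 for and1, −1.23 to −0.90 for and2 and −2.06 to −1.75 for and3, and adjusted p of at most 3.0e-04. The values nearest to 0 came from library totals alone, which moved the median of all tested genes from 0.0034 to 0.26 on the log2 scale (0.21 with totals that leave out the members' counts). With the replicate number as a block, the members were at −1.25, −1.16 and −2.01, and of the member and list counts only that of higher basal epidermis markers moved by more than 1.5 times, from 1 to 3. The exact sign-flip permutation test of the 3 pairs gave p = 0.25, the smallest it allows, for the share and for each ratio. With library totals alone, 6820 genes were higher and 1638 lower, against 3724 and 3499, and 1 actinotrichia collagen gene was lower. In the same fit 1 collagen processing gene was higher, 5 fold mesenchyme genes were higher and 7 lower, and 4 fold epidermis and adhesion genes were higher. With totals that leave out the members' counts, 6159 genes were higher and 1866 lower, 1 actinotrichia collagen gene was lower, 3 fold mesenchyme genes were higher and 7 lower, and 4 fold epidermis and adhesion genes were higher. These shifts follow from the construction of the scaling. With 1 library left out, 3011 to 3869 genes were higher and 2732 to 3667 lower. The count of lower actinotrichia collagens ran from 2 to 6 (2 without amputated replicate 1, 3 without amputated replicate 2 and 3 without uncut replicate 3), and that of higher fold mesenchyme genes from 0 to 1 (without uncut replicate 1). The change in the members' share of counts ran from −3.15 to −2.93 percentage points, and the and3 to and1 ratio from −0.79 to −0.69, the and3 to and2 ratio from −0.89 to −0.77 and the and2 to and1 ratio from 0.08 to 0.10 on the log2 scale. With 3 libraries per group no single ratio or share can pass 0.05 in an exact test.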
